A study of Mus musculus with 10 samples.

Results

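The amino acid transporters described here are the entries of the deposited gene table whose symbol begins with Slc1a, Slc3a, Slc6a, Slc7a, Slc36a, Slc38a or Slc43a followed by a number. The rule reads the symbol and no measured value, and they number 67 of the 25233 entries with a gene symbol, in a table of 62322 entries. By family there are 7 Slc1a, 2 Slc3a, 22 Slc6a, 16 Slc7a, 6 Slc36a, 11 Slc38a and 3 Slc43a entries. Of the 67, 4 are named for the strand opposite a transporter gene: *Slc36a1os*, *Slc36a3os* and *Slc6a19os*, which are long noncoding RNA genes, and *Slc7a6os*, a protein-coding gene that is no transporter. The other 63 encode a transporter or a transporter subunit, although some carry other substrates: *Slc6a6* carries taurine, *Slc6a8* carries creatine and *Slc43a3* carries purine nucleobases.

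Amino acids cross the plasma membrane and the lysosomal membrane through solute carrier proteins, some of which exchange one amino acid for another and some of which are driven by sodium or protons. Several Slc7a proteins reach the cell surface only when joined to a heavy chain, encoded by *Slc3a2* or *Slc3a1*. In the liver, transporters of the Slc1a, Slc7a and Slc38a families supply glutamine, cystine, arginine and other amino acids for glutathione synthesis, urea synthesis and protein synthesis.

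The study compared hypHSCs, hypertrophied hepatic stellate cells, with qHSCs, quiescent hepatic stellate cells. Hepatic stellate cells are the retinoid-storing pericytes of the liver sinusoid. All 10 preparations came from livers of male C57BL/6J mice and each was sequenced as 1 library, 5 per group. The hypHSCs came from mice on the CDAHFD, a choline-deficient, low-methionine, high-fat diet. This diet lasted 13 weeks for hypHSC 1 and 2 (age 19 weeks) and 12 weeks for hypHSC 3, 4 and 5 (age 18 weeks). For qHSCs the mice ate the standard diet and were aged 36 weeks for qHSC 1, 2 and 5 and 34 weeks for qHSC 3 and 4. The hypHSCs were sorted on green autofluorescence and the qHSCs on blue autofluorescence, after digestion under different conditions. Diet, age, digestion and sorting gate therefore differed together and cannot be told apart. Preparations were selected for RNA quality and the mouse behind each library is not named, so p-values measure the spread between preparations, part of which may be technical.

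Reads on genes with a symbol numbered 30534719 to 43283589 in hypHSCs and 35640104 to 47317028 in qHSCs, and the 67 entries held 0.0784% to 0.145% of them in hypHSCs and 0.180% to 0.229% in qHSCs. Values are normalized counts, the reads of a gene divided by the DESeq2 size factor of its library. In qHSCs *Slc43a3*, the purine nucleobase carrier, had 39426 to 59198, where all 67 entries summed to 55327 to 76919. In hypHSCs it had 1677 to 3536, where all 67 summed to 37478 to 52146. The lower share of reads in hypHSCs therefore does not describe the other entries as a set. A gene with 3 reads, taken as the floor of detection, has 2.25 to 4.54 normalized counts. Such limits describe counting error alone, as reads copied by PCR are not separate molecules. The labelled cell type was checked against marker lists. All 16 quiescent stellate cell genes fell in hypHSCs (summed normalized counts 34560 to 68461, against 1430100 to 2349350 in qHSCs). All 17 core macrophage genes rose, with sums of 1219756 to 1720231 against 7744 to 143688, and so did all 10 lipid-associated macrophage genes, with sums of 1085462 to 1228499 against 5850 to 7940. The 4 neutrophil genes and the 4 cholangiocyte genes tested also rose. Summed counts of 9 neutrophil genes were 1861 to 8040 against 12.0 to 391.9. For 7 cholangiocyte genes they were 161565 to 336684 against 30.8 to 389. Nearly all of the hypHSC sums of this list was *Spp1* (mean 237752), which is also on the lipid-associated macrophage list. The next highest cholangiocyte gene was *Sox9*, with a mean of 500 in hypHSCs and 22.0 in qHSCs. Of 8 Kupffer cell genes 4 rose and 1 fell, of 11 endothelial genes tested 3 rose and 4 fell, and of 4 B cell genes 1 rose. Of 10 activated stellate cell genes tested 3 rose and 3 fell, and no hepatocyte (12), erythroid (5) or T and NK cell (2) gene tested was called. Among qHSCs the core macrophage sum was highest in qHSC 4 and in qHSC 1 (62380), against 7744 to 14337 in the other 3. Both libraries also had the highest hepatocyte sums (70835 and 85794, against 25545 to 54237). The same held for the B and plasma cell sums (9003 and 12336, against 56.7 to 2396). The first principal component (62.9% of the variance) separated the groups, and the second (16%) separated hypHSC 5 (-168) and hypHSC 4 (-20.6) from hypHSC 1 to 3 (74.4 to 88.4). Mitochondrial reads made up 2.21% to 12.8% of the hypHSC libraries and 1.25% to 1.61% of the qHSC libraries. The part of other cell types, library quality or these libraries in the transporter differences was not tested, and in bulk RNA fewer cells of a type and less RNA per cell cannot be told apart.

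Transporter genes moved in both directions. Of the 67, 37 reached 10 normalized counts in 5 libraries or more and were tested. Fold changes are those of limma on log2(normalized count + 1), hypHSC over qHSC. The added 1 limits the change of a gene at 0 in a whole group. For a low gene at 0 in part of a group the change can instead be larger than in count models. *Slc7a1*, for example, was at -3.29 with limma and -2.39 with edgeR. A gene was called higher or lower where its log2 fold change was 1 or more in size and its adjusted p was 0.05 or less (Benjamini-Hochberg over all 14630 genes tested). By this rule 11 transporters were higher (29.7% of the 37; 17.8% of all genes tested), 9 were lower (24.3%; 21.7% of all) and 17 were not called, so that 54.1% were called in either direction against 39.5% of all genes. The median log2 fold change was -0.09 over the 37 and -0.20 over all genes tested. In 17 of the 37 the hypHSC and qHSC libraries did not overlap, against 39.5% of all genes. *Slc1a6*, with no read in hypHSCs, is among the 17 and could pass the filter only without overlap. With the libraries scaled on *Hprt*, *Pgk1* and *Actb*, which moves the median of all genes by -0.94, 8 were higher and 16 lower of 38 tested. Of the 14675 genes tested under this scaling, 1472 were higher and 7020 lower. No called gene changed sign under any scaling tried.

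**Figure D1:**
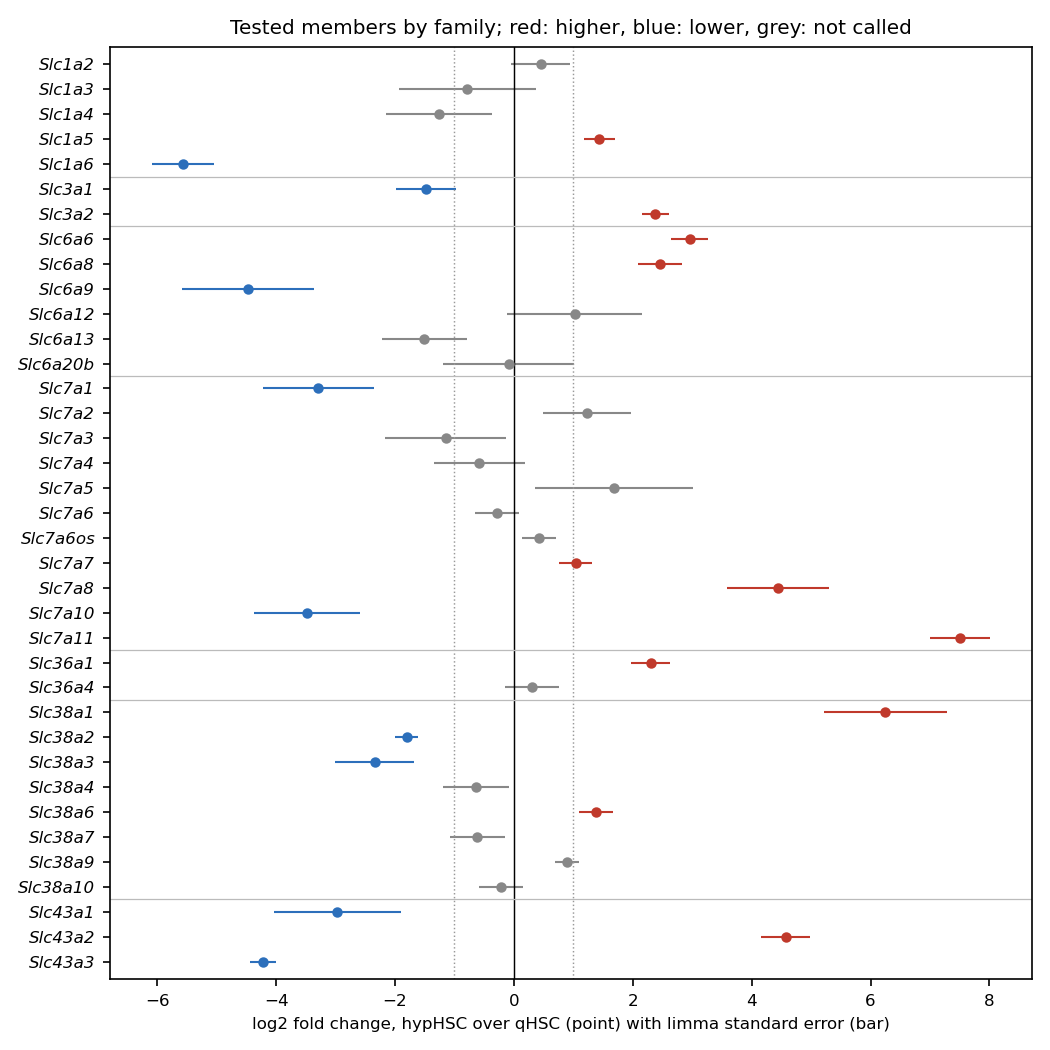
Log2 fold change, hypHSC over qHSC (points, x axis, log2 units), with the limma standard error (bars) for the 37 tested entries, grouped by family; red points were called higher, blue lower and grey not called, and dotted lines mark a log2 fold change of 1 in either direction. *Slc7a11* at 7.50 is the highest point and *Slc1a6* at -5.57 the lowest, and every family except Slc36a has members on both sides of 0.

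Of the 11 Slc7a entries tested, 3 rose, 2 fell and 6 were not called, and the heavy chain gene *Slc3a2* rose. *Slc7a11* (GSMG0061379, chr3:49846974-50398063, minus strand, in GRCm39 as are all positions here) encodes xCT, which takes up cystine in exchange for glutamate and so feeds glutathione synthesis. Its normalized counts were 1345, 2473, 2339, 1842 and 2608 in hypHSC 1 to 5 and 8.15, 6.82, 37, 13.7 and 3.75 in qHSC 1 to 5. Every hypHSC library was thus far above every qHSC library. The log2 fold change was 7.50 ± 0.51 (SE, adjusted p = 8.16e-07).

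*Slc3a2* (GSMG0028125, chr19:8684246-8700734, minus strand) encodes CD98, the 4F2 heavy chain, which joins xCT and several other Slc7a proteins and also binds integrin beta chains. It had 11016, 15997, 15495, 21608 and 18548 normalized counts in hypHSC 1 to 5, against 3334, 2446, 2422, 4597 and 3134 in qHSC 1 to 5. The groups did not overlap, and *Slc3a2* was 2.38 ± 0.23 higher on the log2 scale (adjusted p = 1.09e-05). Of its exon bases 15.9% are shared with the noncoding *Snhg1*, whose reads cannot be told from its own without strand.

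*Slc7a8* (GSMG0017223, chr14:54959672-55019405, minus strand) encodes LAT2, an exchanger of large and small neutral amino acids. Counts of 1312, 2248, 2321, 499 and 369 were found in hypHSC 1 to 5, and of 139, 13.6, 22.8, 260 and 19.5 in qHSC 1 to 5. The groups did not overlap, but the distance between hypHSC 5 and qHSC 4 was small beside the spread within each group. The log2 fold change was 4.44 ± 0.86 (adjusted p = 0.00144).

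*Slc7a7* (GSMG0017213, chr14:54606899-54655401, minus strand) encodes y+LAT1, which exports arginine and lysine in exchange for neutral amino acids and is known from kidney, intestine and macrophages. It measured 989, 1085, 1219, 568 and 697 in hypHSC 1 to 5 and 539, 395, 287, 601 and 384 in qHSC 1 to 5. The groups overlapped, since qHSC 4 was above hypHSC 4. The log2 fold change of 1.04 ± 0.28 (adjusted p = 0.00957, exact permutation p = 0.0159) stood at the threshold. It fell to between 0.90 and 0.99, and the call was lost, without hypHSC 1, 2 or 3 or without qHSC 3. The call was also lost with equal library totals (0.68, adjusted p = 0.0883), at 12 weeks of diet only (0.88, adjusted p = 0.0580) and with scaling on *Hprt*, *Pgk1* and *Actb* (0.10, adjusted p = 0.761). *Oxa1l* shares 10.4% of its exon bases.

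A promoter each of *Slc7a11* and *Slc7a7* is printed because it holds more than 1 copy of the C/EBP-ATF response element (CARE). Through this site ATF4 raises transcription when amino acids are short. *Slc7a7* has 5 promoters in RefSeq, and the one with the most matches was printed. Another, which overlaps it, holds 1 CARE and the rest hold none. The sequences are from RefSeq (GRCm38.p6) and were placed by an exact unique match in GRCm39. Capitals mark the element, TGATGNAA on either strand, and positions count from the transcription start, the base before it being -1. The *Slc7a11* stretch is chr3:50398063-50398192 on the minus strand, bases -130 to -1, with elements beginning at -66 and -47. The *Slc7a7* stretch is chr14:54655392-54655551 on the minus strand, bases -150 to 10, with elements beginning at -141 and -1.
Slc7a11: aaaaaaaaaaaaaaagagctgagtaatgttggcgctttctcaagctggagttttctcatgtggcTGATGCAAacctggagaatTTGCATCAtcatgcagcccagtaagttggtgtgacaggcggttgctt
Slc7a7: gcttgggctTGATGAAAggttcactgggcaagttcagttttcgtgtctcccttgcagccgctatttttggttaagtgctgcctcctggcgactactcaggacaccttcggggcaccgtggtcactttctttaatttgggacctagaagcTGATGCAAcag
Of the 67 entries 49 had a promoter of 300 bases in the RefSeq table (250 before and 50 after the start, 70 promoters in all). A CARE was found in 5 of these 70 promoters, belonging to *Slc7a11*, *Slc7a7*, *Slc1a4* and *Slc6a21*, and in 3.97% of all 32851 promoters. *Slc1a4* was not called and *Slc6a21* reached at most 3 reads, so a match did not go with a rise in every case.

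The other light chain genes of *Slc3a2* were not called higher. *Slc7a6*, which encodes y+LAT2, had 353 ± 171 in hypHSCs and 390 ± 87.1 in qHSCs (SD, n = 5 each), a log2 difference of -0.29 ± 0.37. *Slc7a5*, encoding LAT1, the leucine transporter of dividing cells, had 91.6, 58.0, 49.1, 10.5 and 0 in hypHSC 1 to 5 and 0 to 27.0 in qHSCs. Its log2 fold change of 1.69 ± 1.33 was not called (adjusted p = 0.317), and without hypHSC 5 it was called, at 2.76 (adjusted p = 0.0431). *Slc7a10*, encoding Asc-1, an exchanger of small neutral amino acids, fell from 44.1 ± 22.8 to 5.87 ± 7.55 (log2 fold change -3.48 ± 0.89, adjusted p = 0.00737), although 50.2% of its exon bases are shared with *Lrp3*.

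On a scale per exon length (FPKM, computed here from the recovered reads) the mix of light chains differed. The 6 light chain genes together had 6.59 to 19.1 FPKM in hypHSCs, above the 3.58 to 5.93 of qHSCs. *Slc7a11* made up 30.4% ± 13.2 of that sum in hypHSCs (17.7% to 48.3%) and 0.668% ± 0.800 in qHSCs. Conversely, *Slc7a6* made up 10.5% ± 2.78 in hypHSCs and 40.8% ± 9.93 in qHSCs, and *Slc7a7* 30.7% ± 2.90 against 47.8% ± 6.25, again without overlap. The *Slc7a8* share, 26.3% ± 11.1 against 5.75% ± 6.01, overlapped between the groups. *Slc3a2* itself had 57.4 to 103 FPKM in hypHSCs and 15.9 to 30.3 in qHSCs. Its ratio to the light chain sum was 4.84, 5.07, 4.84, 15.7 and 11.4 in hypHSC 1 to 5 and 3.33 to 5.29 in qHSCs, so that the ratio was outside the qHSC range in hypHSC 4 and 5 alone.

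**Figure D2:**
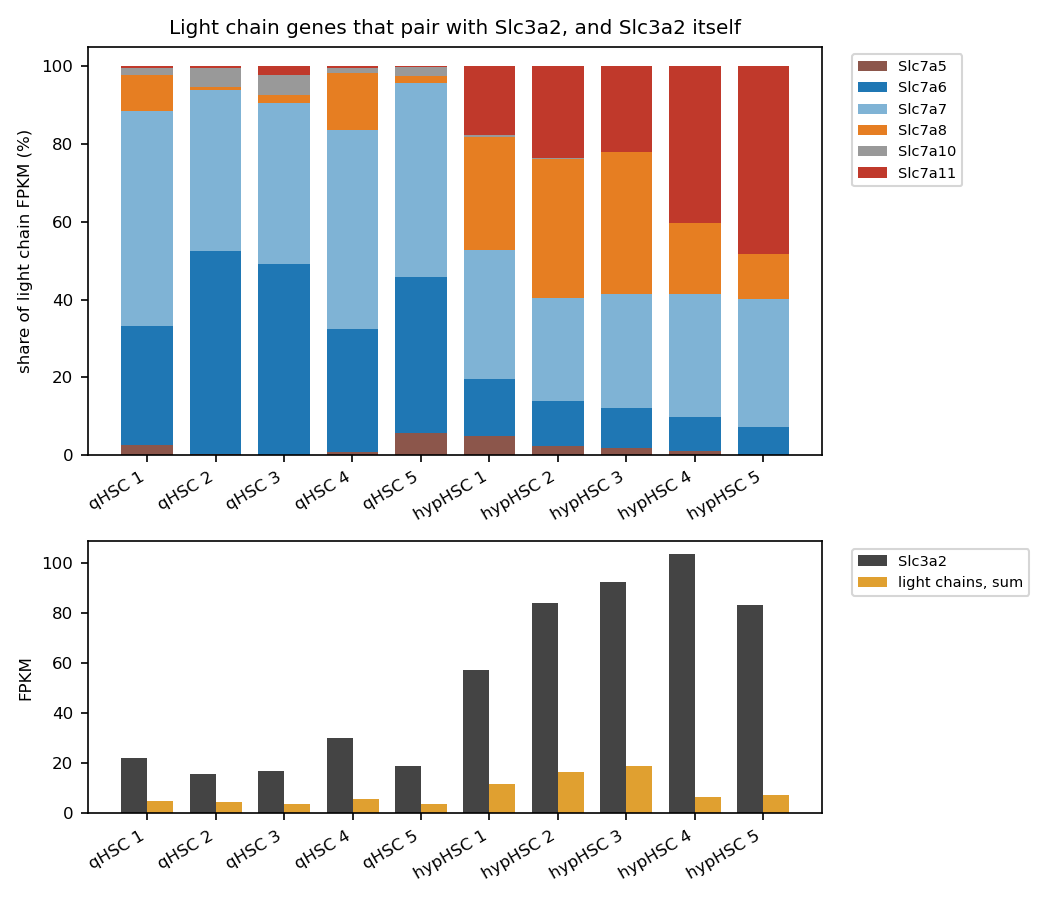
Upper panel, share (%) of the summed FPKM of 6 light chain genes taken by each gene in each library; lower panel, FPKM of *Slc3a2* (dark bars) and the light chain sum (light bars), from 0. *Slc7a11* (red) takes 17.7% to 48.3% of the sum in the hypHSC libraries and at most 2.09% in the qHSC libraries.

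The second heavy chain, *Slc3a1*, moved the other way. It encodes rBAT, the heavy chain of the cystine and basic amino acid exchanger of kidney and gut, whose light chain gene *Slc7a9* had no read in any library. Counts fell from 61.6 ± 27.5 in qHSCs to 22.7 ± 15.1 in hypHSCs, with overlap (log2 fold change -1.48 ± 0.51, adjusted p = 0.0319). The call was lost without hypHSC 1, 2 or 4 or without qHSC 1 or 5 (adjusted p = 0.0548 to 0.0856), and 26.8% of the exon bases are shared with *Prepl*.

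Among the genes of the cationic amino acid transporter group, *Slc7a1* fell and *Slc7a2*, *Slc7a3* and *Slc7a4* were not called. All but *Slc7a4*, which is grouped with them by family, encode carriers that take up arginine, lysine and ornithine without a heavy chain. *Slc7a1* (CAT1) had 6.74, 16.6, 20.8, 0 and 0 in hypHSC 1 to 5 and 33.5, 53.7, 41.7, 74.4 and 42.7 in qHSC 1 to 5. The groups did not overlap (log2 fold change -3.29 ± 0.94, adjusted p = 0.0132). The call was lost with edgeR (-2.39, adjusted p = 0.0700) and without qHSC 1 and 4 (-3.24, adjusted p = 0.0616). *Slc7a2* (CAT2), the arginine carrier linked to nitric oxide and arginase metabolism in macrophages, had 119, 290, 220, 34.6 and 21.2 in hypHSCs, so that hypHSC 1 to 3 were above all qHSC libraries (23.1 to 95.0) and hypHSC 4 and 5 were not. Its log2 fold change of 1.23 ± 0.74 was not called (adjusted p = 0.194) and reached 1.74 without hypHSC 5 (adjusted p = 0.0412). With DESeq2 *Slc7a2* was called higher, at 1.71 (adjusted p = 0.0310). *Slc7a3* (-1.15 ± 1.01) and *Slc7a4* (-0.58 ± 0.77) were not called at 0 to 89.0 normalized counts per library, and *Slc7a6os* at 79.2 to 159 was not called either (0.43 ± 0.29).

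The sodium-coupled Slc38a family, which carries glutamine, alanine and other small neutral amino acids, held a pair of neighbours that moved apart. *Slc38a1* (GSMG0020268, chr15:96469299-96540797, minus strand) and *Slc38a2* (GSMG0020269, chr15:96585271-96597612, minus strand) lie 44473 bases apart and encode SNAT1 and SNAT2, both system A transporters. *Slc38a1* had 706, 1033, 1005, 543 and 585 normalized counts in hypHSC 1 to 5 and 27.2, 0, 1.57, 87.3 and 13.5 in qHSC 1 to 5. Each hypHSC library was far above the highest qHSC library, and the log2 fold change was 6.25 ± 1.04 (adjusted p = 0.000494). In contrast, *Slc38a2* had 2415, 2582, 2416, 1873 and 2601 in hypHSCs and 9083, 7760, 5741, 11681 and 8057 in qHSCs. It was lower in every hypHSC library (log2 fold change -1.80 ± 0.19, adjusted p = 2.48e-05). Of the summed FPKM of *Slc38a1*, *Slc38a2* and *Slc38a4* (reads per exon length, described above), *Slc38a2* held 78.6% ± 3.84 in hypHSCs and 95.2% ± 2.38 in qHSCs, while *Slc38a1* went from 0.119% ± 0.146 to 13.0% ± 2.97. The third gene of that stretch of chromosome 15, *Slc38a4* (SNAT4), a hepatocyte transporter, had 71.5 to 232 in hypHSCs and 77.5 to 473 in qHSCs and was not called (-0.64 ± 0.55).

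*Slc38a6* (GSMG0010958, chr12:73333622-73400819, plus strand), which encodes SNAT6, whose transport is poorly known, rose. Its counts were 481, 488, 610, 411 and 302 in hypHSC 1 to 5, above the 205, 119, 241, 176 and 140 of qHSC 1 to 5 (log2 fold change 1.38 ± 0.28, adjusted p = 0.00182). *Slc38a3* (GSMG0059819, chr9:107527838-107546202, minus strand), encoding SNAT3, a system N glutamine transporter of hepatocytes, fell. It measured 20.2, 56.9, 4.16, 19.9 and 34.8 in hypHSC 1 to 5 and 246, 56.2, 84.2, 148 and 87.7 in qHSC 1 to 5. Only hypHSC 2 and qHSC 2 overlapped (log2 fold change -2.34 ± 0.66, adjusted p = 0.0129). *Slc38a3* was higher in qHSC 1 and 4 than in the other qHSCs, and without both it was not called (-1.80, adjusted p = 0.105). The 12 hepatocyte markers had summed counts of 13024 to 107070 in hypHSCs against 25545 to 85794 in qHSCs.

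The other tested members of the family, *Slc38a9*, *Slc38a7* and *Slc38a10*, were not called. *Slc38a9* encodes the lysosomal arginine sensor that activates mTORC1. It had 717, 877, 1316, 866 and 770 in hypHSCs and 387 to 533 in qHSCs, without overlap. Its log2 fold change of 0.89 ± 0.20 (adjusted p = 0.00406) was under the fold threshold. With libraries scaled to the same upper quartile *Slc38a9* was called higher, at 1.02 (adjusted p = 0.00188). It was also called higher at 12 weeks of diet only (adjusted p = 0.00851), in both cases just above the threshold. With scaling on *Hprt*, *Pgk1* and *Actb* it was at -0.045 and not called. *Slc38a7*, the lysosomal glutamine exporter, had 738, 1508, 1533.5, 407 and 272 in hypHSCs, which span the 757 to 1430 of qHSCs on both sides, and *Slc38a10* had 1063 to 3530 against 1526 to 3432. Their log2 fold changes were -0.62 ± 0.46 and -0.22 ± 0.37.

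In the Slc1a family, of glutamate and neutral amino acid transporters, *Slc1a5* (GSMG0047815, chr7:16515271-16532199, plus strand) rose. It encodes ASCT2, a sodium-dependent exchanger of glutamine and other neutral amino acids. Its counts were 1218, 970, 1182, 651 and 845 in hypHSC 1 to 5 and 377, 388, 516, 249 and 280 in qHSC 1 to 5. The groups did not overlap (log2 fold change 1.44 ± 0.26, adjusted p = 0.000839). With scaling on *Hprt*, *Pgk1* and *Actb* the log2 fold change of *Slc1a5* was 0.50 and that of *Slc38a6* 0.45, and neither was then called.

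The glutamate transporter genes of this family were low. *Slc1a6* (EAAT4) had no read in any hypHSC library and 63.4, 42.6, 50.4, 58.2 and 27.0 normalized counts in qHSC 1 to 5. Against a floor of 3 reads per library it was at least 13.9-fold lower in hypHSCs. Being at 0 in all hypHSCs, it passed the filter only because all 5 qHSC libraries reached 10 normalized counts. Once it was tested its groups could thus not overlap, and its adjusted p (9.45e-06) adds no support. *Slc1a7* (EAAT5), which did not pass the filter, had 1 read in the 5 hypHSC libraries and 58.8, 101, 10.2, 6.85 and 16.5 in qHSC 1 to 5, all above the hypHSC values. *Slc1a2* (0.45 ± 0.50) and *Slc1a3* (-0.79 ± 1.15), the main glutamate transporters of astrocytes, and the serine and alanine transporter gene *Slc1a4* (-1.26 ± 0.89) were not called, at 0 to 141 normalized counts.

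The Slc6a family is driven by sodium and chloride and is best known for neurotransmitter uptake, and 16 of its 22 entries did not pass the filter. Of the 6 tested, 2 rose, 1 fell and 3 were not called. *Slc6a6* (GSMG0044717, chr6:91661048-91736044, plus strand), the taurine transporter, had 6915, 8665, 9404, 4165 and 3377 in hypHSC 1 to 5 and 785, 1033, 566, 1024 and 598 in qHSC 1 to 5. All hypHSC libraries were above all qHSC libraries (log2 fold change 2.96 ± 0.31, adjusted p = 2.21e-05). *Slc6a8* (GSMG0060600, chrX:72716739-72726104, plus strand), the creatine transporter, had 980, 1447, 1600, 783 and 490 in hypHSC 1 to 5 and 142, 130, 128, 289 and 244 in qHSC 1 to 5. It was likewise separated (log2 fold change 2.46 ± 0.37, adjusted p = 0.000255).

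*Slc6a9* (GSMG0037122, chr4:117691701-117732393, plus strand), which encodes the glycine transporter GLYT1, fell. It measured 63.3, 23.8, 98.1, 4.2 and 0 in hypHSC 1 to 5, all below the 614, 493, 334, 210 and 207 of qHSC 1 to 5 (log2 fold change -4.47 ± 1.10, adjusted p = 0.00620). Its exons share 33.8% of their bases with *Ccdc24*, *B4galt2* and a noncoding gene. *Slc6a12*, a betaine and GABA carrier, had 6.05 to 95.2 in hypHSCs and 0 to 70.6 in qHSCs (1.02 ± 1.14), and its neighbour *Slc6a13*, also a GABA carrier, had 7.56 to 26.9 against 8.52 to 116 (-1.51 ± 0.71, adjusted p = 0.103). *Slc6a13* was called without qHSC 2, at -2.07 (adjusted p = 0.0176), and with DESeq2, at -1.85 (adjusted p = 0.0177). *Slc6a20b* was not called (-0.09 ± 1.10).

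The Slc36a proteins move small neutral amino acids together with protons, out of lysosomes or across the plasma membrane. *Slc36a1* (GSMG0007404, chr11:55095166-55127158, plus strand), encoding the lysosomal PAT1, had 267, 322, 272, 236 and 371 in hypHSC 1 to 5 and 35.3, 81.8, 40.9, 80.4 and 68.2 in qHSC 1 to 5. The groups were separated (log2 fold change 2.30 ± 0.33, adjusted p = 0.000185), whereas *Slc36a4* was not called (43.9 to 223 against 95.9 to 130, 0.30 ± 0.46). The promoter of *Slc36a1* is shown because it held the core of the CLEAR element, bound by TFEB, TFE3 and MITF on lysosomal genes. The stretch is chr11:55095036-55095175 on the plus strand, bases -130 to 10. Capitals mark the core TCACGTGA, beginning at -4, and an overlapping match to the antioxidant response element TGACNNNGC, beginning at 2.
Slc36a1: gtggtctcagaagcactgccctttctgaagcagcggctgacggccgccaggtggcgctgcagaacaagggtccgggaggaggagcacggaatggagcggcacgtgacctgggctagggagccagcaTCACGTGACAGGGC
The CLEAR core was in 1 of the 70 promoters of these families and in 0.974% of all promoters. The antioxidant response element, bound by NRF2, was in 12 of the 70, belonging to 10 of the 49 entries, and in 12.4% of all promoters, and the *Slc7a11* promoter window had no match to it.

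Of the Slc43a family, all 3 members were called. *Slc43a2* (GSMG0007750, chr11:75422520-75468396, plus strand) encodes LAT4, which carries branched-chain amino acids and other large neutral amino acids without exchange. It had 2218, 2480.5, 3204, 1789 and 1965 in hypHSC 1 to 5 and 131, 70.7, 83.5, 242 and 40.5 in qHSC 1 to 5. Every hypHSC library was above every qHSC library by a wide margin (log2 fold change 4.57 ± 0.41, adjusted p = 6.98e-06), and 17.8% of its exon bases are shared with a noncoding gene. *Slc43a1*, encoding the related LAT3, fell from 56.6 ± 35.3 to 12.0 ± 11.8, with overlap (-2.97 ± 1.07, adjusted p = 0.0394). That call was lost without hypHSC 2 or 5 or without qHSC 1, 2, 3 or 5 (adjusted p = 0.0657 to 0.0919). It was also lost with DESeq2 (-2.17, adjusted p = 0.0656) and edgeR (-2.13, adjusted p = 0.124).

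*Slc43a3* (GSMG0029598, chr2:84766990-84788853, plus strand), whose product ENBT1 carries purine nucleobases, was the most abundant of all in qHSCs. Its counts were 47561, 55745, 39426, 39926 and 59198 in qHSC 1 to 5 and 3536, 2350, 2826, 2743 and 1677 in hypHSC 1 to 5. It fell by 4.22 on the log2 scale (SE 0.22, adjusted p = 1.48e-07), and no library of one group came near the other. It made up 73.4% ± 5.50 of the summed FPKM of the 67 entries in qHSCs and 6.45% ± 2.14 in hypHSCs. *Slc43a1* lies 73051 bases before it on chromosome 2.

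**Figure D3:**
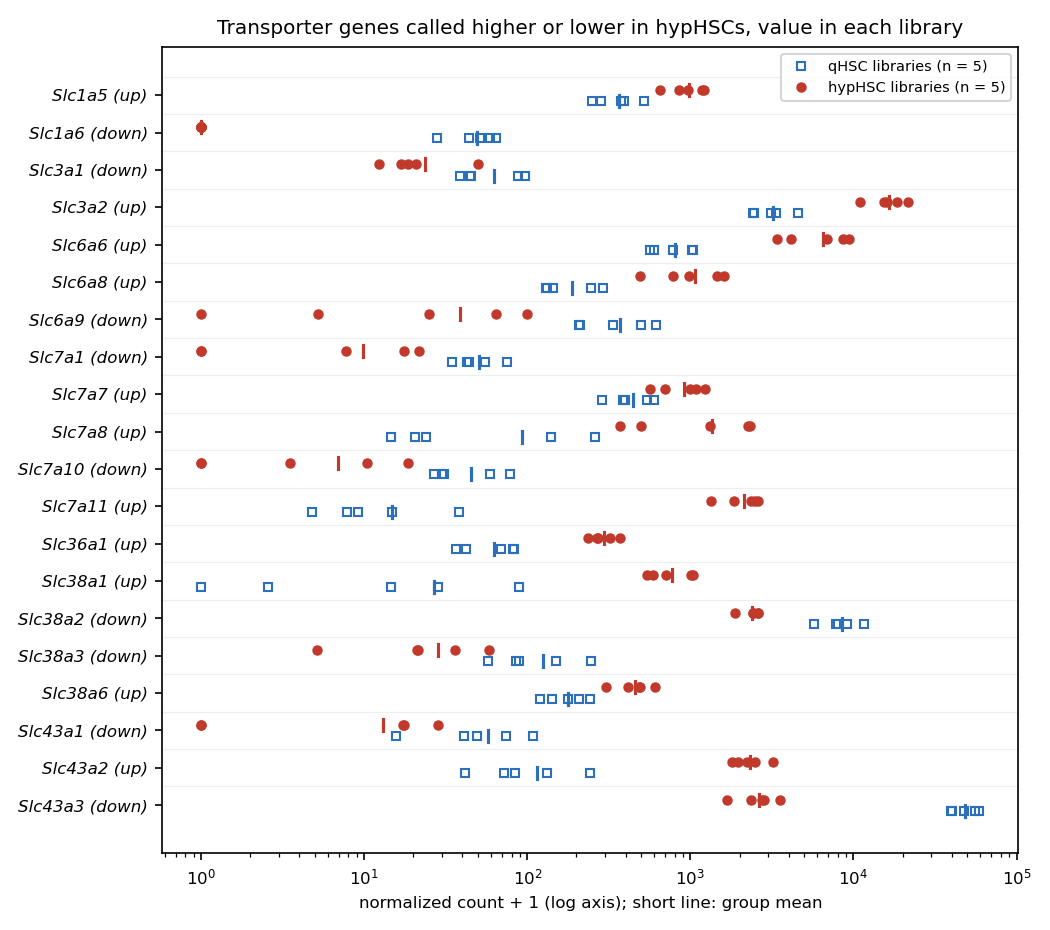
Normalized count plus 1 (x axis, log scale) in each hypHSC library (red circles) and qHSC library (blue squares) for the 20 called transporter genes, with a short line at the group mean of 5 libraries; up and down give the direction in hypHSCs. The groups overlap in *Slc7a7*, *Slc38a3*, *Slc3a1* and *Slc43a1*, and *Slc43a3*, at 39426 to 59198 in qHSCs, is the rightmost gene.

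The order of levels per exon length changed accordingly. In hypHSCs *Slc3a2* led with 84.1 ± 17 FPKM and did not overlap with the next gene, *Slc6a6* (13.2 ± 6.55). *Slc43a3* (10.3 ± 3.21), *Slc38a10* (8.39 ± 4.55), *Slc38a2* (5.88 ± 1.01), *Slc6a8* (5.02 ± 2.62), *Slc43a2* (4.58 ± 1.60) and *Slc1a5* (4.37 ± 1.42) followed, each overlapping with its neighbour in this order. In qHSCs *Slc43a3* led with 238 ± 34.4 FPKM, far from *Slc38a2* (26.6 ± 6.79), which overlapped with *Slc3a2* (20.8 ± 5.81). *Slc38a10* (11.5 ± 4.03) and *Slc38a7* (6.26 ± 1.46) came next. A mean of at least 1 FPKM was reached by 16 entries in hypHSCs and 12 in qHSCs.

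Within the groups, several transporters varied with the libraries that stood apart. Of the 11 higher transporters, 8 were higher in hypHSC 1, 2 and 3 than in hypHSC 4 and 5 (*Slc43a2*, *Slc38a6*, *Slc7a7*, *Slc7a8*, *Slc38a1*, *Slc6a6*, *Slc1a5* and *Slc6a8*). Of all 2602 genes called higher, 22.9% had this order. It was also found in 3 of the 9 lower transporters, against 37.9% of all genes called lower. Over all 37 tested, 18 had it, against 30.3% of all genes tested. *Slc3a2* had the reverse order, as did 28.5% of the genes called higher. Without hypHSC 4 and 5, 13 transporters were higher and 8 lower, the additional ones being *Slc7a2* and *Slc7a5*. The diet times, 13 weeks in hypHSC 1 and 2 and 12 weeks in the others, separated none of the 11 higher transporters. Of all genes called higher, 11.5% were higher at 13 weeks and 7.49% lower. Over all 37 tested, 5 were higher at 13 weeks and 1 was lower, against 15.6% and 6.34% of all genes tested. At 12 weeks only, 11 were higher and 8 lower, but the genes were not the same. *Slc38a9* was then called higher (adjusted p = 0.00851) and *Slc1a4* lower (-2.55, adjusted p = 0.0160). *Slc7a7*, *Slc3a1* and *Slc43a1* were no longer called.

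Of the 11 higher transporters, 5 (*Slc43a2*, *Slc7a7*, *Slc7a8*, *Slc38a1* and *Slc3a2*) were higher in qHSC 1 and 4 than in the other 3, against 26.4% of all genes called higher. Libraries qHSC 1 and 4 had the highest core macrophage, hepatocyte and B cell sums among qHSCs. Of the 9 lower transporters, 3 (*Slc1a6*, *Slc38a2* and *Slc38a3*) had the same order, against 4.53% of all genes called lower. Over all 37 tested, 12 had it, against 11.1% of all genes tested. In *Slc7a8*, qHSC 1 and 4 had 139 and 260 against 13.6 to 22.8, and in *Slc38a1* 27.2 and 87.3 against 0 to 13.5. *Slc7a11*, at 8.15 and 13.7, and *Slc6a6*, at 785 and 1024, did not follow that order. Without qHSC 1 and 4 the 11 rises were all called, with log2 fold changes of 5.77 for *Slc7a8*, 7.81 for *Slc38a1* and 7.52 for *Slc7a11*, and 5 falls were called in place of 9.

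**Figure D4:**
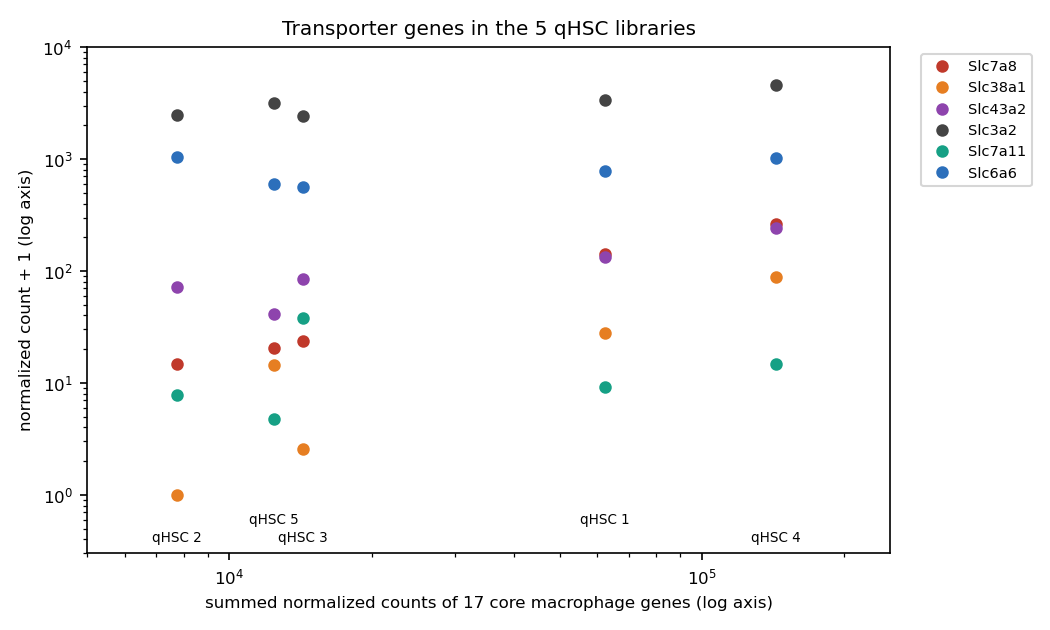
Normalized count plus 1 of 6 transporter genes (y axis, log scale) in the 5 qHSC libraries, placed by the summed normalized counts of 17 core macrophage genes (x axis, log scale). *Slc7a8*, *Slc38a1* and *Slc43a2* are higher in qHSC 1 and 4, at sums of 62380 and 143688, than in the other libraries, while *Slc7a11* and *Slc6a6* do not follow that order.

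The remaining 30 entries did not pass the filter. Of these, 11 had no read in any library (among them *Slc7a9*, *Slc7a12*, *Slc38a5*, *Slc38a8*, *Slc6a3* and *Slc6a11*), 4 reached at most 3 reads in a library and 15 exceeded 3 reads somewhere. Some of these 15 lay on one side. *Slc38a11* had no read in hypHSCs and 23.5, 31.5, 14.2, 8.56 and 23.2 in qHSC 1 to 5, and was at least 5.83-fold lower against a floor of 3 reads per library. *Slc7a15* had 17.5, 28.0, 70.7, 4.2 and 151 in hypHSC 1 to 5 and at most 2.57 in qHSCs, where 3 reads were found in all. *Slc36a2* and *Slc36a3*, next to *Slc36a1* on chromosome 11, had 44.5, 79.7, 77.3, 63.0 and 0 and 16.2, 21.7, 2.49, 15.7 and 0 in hypHSC 1 to 5, against 1 read in all qHSCs for *Slc36a2* and none for *Slc36a3*. *Slc6a19*, the intestinal and renal neutral amino acid carrier B0AT1, had 111 in hypHSC 2 and 0 to 15 in the other hypHSCs, against 0 to 6.30 in qHSCs. None of these entries was part of the main test.

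Lists of genes that work with the transporters gave further counts. Of 11 partners and chaperones of transporters, 3 rose. *Lgals3*, whose product galectin-3 binds CD98 and which also stands on the lipid-associated macrophage list, rose by 8.29 ± 0.80 on the log2 scale. *Emb*, encoding the membrane glycoprotein embigin, rose by 7.78 ± 0.58 and *Nedd4l*, a ubiquitin ligase that removes transporters from the surface, by 1.02 ± 0.23. The ubiquitin ligase *Nedd4* fell from 6309 to 520 normalized counts. *Calr*, *Bsg* and *Itgb1*, the integrin beta chain that CD98 binds, were not called.

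Of 27 tested transporters of amino acids and peptides in other families, 10 rose and 1 fell. The highest rise with a mean of at least 100 was that of *Mfsd12*, needed for cysteine entry into lysosomes and melanosomes (41.2 to 1692 normalized counts, log2 fold change 5.48 ± 0.40). The lysosomal peptide and histidine carrier *Slc15a3* (3.29 ± 0.35), the mitochondrial aspartate-glutamate carrier *Slc25a13* (3.05 ± 0.52) and the choline and heme carrier *Flvcr1* (2.91 ± 0.23) followed. The fall was that of the mitochondrial basic amino acid carrier *Slc25a29* (97.2 to 8.15), named after its value was seen. The lysosomal cystine exporter *Ctns* was not called (0.17).

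Amino acid sensing at the lysosome was tested in 38 genes, of which 11 rose and 6 fell, the other 21 not being called. *Fnip2*, a partner of folliculin (4.42 ± 0.36), the transcription factors *Mitf* (3.75 ± 0.81) and *Tfeb* (3.01 ± 0.55), and the Ragulator subunit *Lamtor4* (1.98 ± 0.23) rose. The arginine sensor *Castor1* (-3.61 ± 0.98), the KICSTOR subunit *Itfg2* (-2.07 ± 0.53), the GTPase *Rragd* (-2.0 ± 0.38) and the GATOR2 subunit *Seh1l* (-1.35 ± 0.18) fell.

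In the list of the amino acid response and of amino acid synthesis, 11 of 30 rose and 3 fell. *Asns*, asparagine synthetase (13.7 to 238 normalized counts, 4.2 ± 0.61), the mitochondrial folate enzyme *Mthfd2* (4.0 ± 0.31), *Trib3* (3.66 ± 0.99) and the serine synthesis enzyme *Psat1* (3.23 ± 0.44) rose. *Cth* (-1.73 ± 0.56), the last enzyme of transsulfuration, which makes cysteine, *Ppp1r15a* (-1.5 ± 0.57) and *Shmt2* (-1.01 ± 0.30) fell. *Atf4* itself was not called (0.18), nor was *Chac1* (-0.75).

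Of 40 tested enzymes that use the carried substrates, 9 rose and 7 fell. *Acod1*, which makes itaconate (5.86 ± 0.86), *Gclm*, the modifier subunit of the first enzyme of glutathione synthesis (53.7 to 1498 normalized counts, 4.67 ± 0.41), *Gatm*, the first enzyme of creatine synthesis (4.31 ± 0.59), and the surface aminopeptidase *Anpep* (3.99 ± 0.48) rose. *Ggt5* (3060 to 85.1, -5.18 ± 0.29) and *Ggt7* (-4.46 ± 0.92), of the family that breaks down extracellular glutathione, the GABA transaminase *Abat* (-3.29 ± 1.01) and the taurine synthesis enzyme *Csad* (-1.85 ± 0.44) fell. The share of genes called in these 5 lists is to be read against the 39.5% of all genes tested.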

How the data were processed

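RNA sequencing was analysed for 5 hypHSC and 5 qHSC libraries. According to their methods, the authors prepared cDNA libraries from poly(A) RNA without keeping the strand, sequenced both ends of fragments (59 bases), aligned the reads to mm39 (GRCm39) with STAR, counted them per gene with featureCounts (Subread 1.5.0) and scaled the counts with DESeq2 size factors. The deposited values are thus a signal per gene, the normalized count, and 100% of the values in each library became whole reads after multiplication by 1 factor per library, within 0.005 normalized counts plus a share of 1e-05 of the value. Depth, FPKM, DESeq2 (1.42.0) and edgeR (4.0.16) used these reads, and all other steps used the deposited values.

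Genes with a symbol and 10 normalized counts or more in 5 of 10 libraries were fitted together with limma 3.58.1 (lmFit, eBayes with trend) in R 4.3.3 on log2(normalized count + 1). Errors are limma standard errors or, beside means, SD. For single genes an exact two-sided permutation test over the 252 arrangements of the libraries was run, for which 0.00794 is the smallest p possible and is reached by genes whose groups do not overlap. On simulated data with 200 changed genes among 14586 tested, 87% of the changed and 0.0487% of the unchanged genes were called. The simulation gave every gene the same dispersion, changed far fewer genes than were called here and held no outlying libraries. These rates therefore need not hold for the data. Exon lengths and shared exon bases came from GENCODE on GRCm39, promoters from RefSeq on GRCm38.p6; the promoters of *Slc1a5*, *Slc38a1*, *Slc38a3*, *Slc43a3*, *Slc6a6* and *Slc6a8* were not among those matched.

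The members and the gene lists were chosen with earlier results of these data known. All tested members may be named; values in every library are given for called members with a mean of 100 normalized counts or more in a group and for some others. From each list, up to 4 called genes per direction with such a mean are named, largest change first, except 1 that is not reported here, and genes that were not called were picked after their values were seen. Alternatives changed the scaling, pseudocount, filter, model or libraries; leaving out hypHSC 4 and 5 together, or qHSC 1 and 4 together, was added after the data had been seen. The replicate number was used as a block in an alternative.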

Additional observations from a re-analysis of the deposited data

Results flagged for a closer look

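In each group of 5 libraries, the gap between the extreme value and its nearest neighbour was set against the range of the group (Dixon's criterion, critical ratio 0.71). Of 74 groups, 2 for each of the 37 tested genes, 6 were above it, and chance alone gives about 1 in 20. *Slc1a3* was at 0 normalized counts in hypHSC 5, against 36.4 to 119 in the other hypHSCs, and at 14.5 in qHSC 2, against 56.2 to 75.3. *Slc38a2* was at 1873 in hypHSC 4, against 2415 to 2601, and remained below every qHSC library. *Slc7a2* was at 95.0 in qHSC 1, against 23.1 to 34.1. *Slc7a3* was at 0 in hypHSC 4, against 12.4 to 32.3, and *Slc7a4* was at 14.6 in qHSC 4, against 48.6 to 75.1. Apart from *Slc38a2*, none of these genes was called.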

How the results depend on the processing

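With 1 library left out at a time there were 10 to 13 higher and 7 to 9 lower transporters, and 17 of the 20 called genes stayed called in all 10 of these fits, the exceptions being *Slc3a1*, *Slc43a1* and *Slc7a7*. Under every alternative in which they were fitted, 13 stayed called (*Slc1a6* and *Slc7a10* among them are removed by a filter on a mean of 100), and no called gene changed sign. The lower count moved to 16 with scaling on *Hprt*, *Pgk1* and *Actb*, under which 7020 of all 14675 genes tested were lower. It moved to 3 with a filter on a mean of 100, which leaves 21 of the genes, and to 5 without qHSC 1 and 4. The higher count was 8, 11 and 11 in these. Without a filter, 15 were higher and 10 lower of 56 tested. DESeq2 gave 12 and 9, with *Slc7a2* and *Slc6a13* added and *Slc43a1* lost, and edgeR 11 and 6. Equal totals moved the median of all genes by -0.35, equal upper quartiles by 0.12 and TMM by 0.06, besides the -0.94 of the reference genes.

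The replicate numbers shared by the labels did not pair the libraries: deviations of same-numbered libraries correlated at 0.066, 0.073, 0.008, 0.062 and 0.129, and only number 5 correlated best with itself. With the number as a block, 11 were higher and 7 lower, *Slc3a1* and *Slc43a1* no longer being called.

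These log2 fold changes of genes not called took the opposite sign, and the cause was not tested. With the reference genes they were -0.47 for *Slc1a2*, -0.63 for *Slc36a4*, -0.045 for *Slc38a9* and -0.50 for *Slc7a6os*, and with equal totals -0.048 for *Slc36a4*. Without hypHSC 4 and 5 they were 0.13 for *Slc1a3*, 0.33 for *Slc38a10*, 0.12 for *Slc38a7*, 0.44 for *Slc7a4* and 0.31 for *Slc7a6*, and without qHSC 1 and 4, 0.050 for *Slc38a4* and 0.18 for *Slc6a20b*. *Slc1a3* was at 0.086 with DESeq2 and 0.10 with edgeR. *Slc6a20b* was at 0.96 with DESeq2, 0.92 with edgeR, 0.027 with equal upper quartiles, 0.13 with a pseudocount of 5 and 0.88 at 12 weeks only. With 1 library left out, *Slc1a3* ranged from -1.31 to 0.42, *Slc38a10* from -0.40 to 0.028 and *Slc6a20b* from -0.83 to 0.77.

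Depth limits the genes with the fewest reads, among them *Slc7a1*, *Slc7a10* and *Slc43a1*, each at 0 in 2 hypHSC libraries.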
